A study of Homo sapiens with 30 samples.

Results

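The 10 genes described here were USP7, USP21, USP36, USP17L2, USP3, USP16, MYSM1 and BAP1, which encode deubiquitinases outside the SAGA complex, and ASXL1 and ASXL2, which encode cofactors of BAP1. They were listed by symbol, by a rule that holds no measured value, at a time when earlier results of these data were known, and all 10 were present among the 737 genes of a chromatin regulator library used for pooled CRISPR-Cas9 knockout screens in human hepatocellular carcinoma (HCC) cells. The screens used HLF, a poorly differentiated HCC line, and PLC/PRF/5, an HCC line that carries integrated hepatitis B virus DNA. Both are established lines, and each screen was a mixed population of cells carrying 1 lentiviral vector with Cas9 and a guide RNA. The 30 sequenced libraries formed 10 groups of 3.

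Each line was grown as a monolayer on plastic (2D) and as spheroids kept from attaching in methylcellulose medium (3D). The 2D groups of both lines and the HLF 3D group had initial libraries of day 0 and final libraries of day 28, while the PLC/PRF/5 3D initial group carried no day in its labels and its final group was taken at day 28. A second pair of HLF 3D final groups was collected at day 28 with DMSO, the vehicle, or with SNDX-5613 (revumenib), an inhibitor of the contact between menin and MLL1. According to the labels it was used at 5 µM while the study's methods name another dose, so the dose was not settled. The library names of the HLF final groups with no treatment in their labels also contain the word DMSO, and they are called untreated here as the labels give it. Only 1 group of HLF 3D initial libraries was labelled, so the 3 HLF 3D screens may share their starting point and are not independent of each other.

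For each gene and each of 9 comparisons the deposited table held 1 Score and 1 false discovery rate (FDR). The Score is the signed −log10 value of the robust rank aggregation (RRA) of all guides of a gene, negative where the guides became rarer and positive where they became more common. It measures how consistently the guides of a gene ranked at one end of the library and is no fold change. A gene was called at an FDR under 0.05, as depleted or enriched against the initial libraries, or as lower or higher between 2 sets of final libraries. The deposited table used here held no value per library, so the values below are given with no SD, depth or replicate test. The HLF 3D screen and the HLF 3D screen with DMSO differed with an SD of 1.499 Score units over the 737 genes, and this is the yardstick used here for differences between screens. It covers 1 line and 1 culture only, and the columns of these 2 screens end in different number tags whose meaning is not given, so what else differed between them is not known.

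Ubiquitin on histones is placed by E3 ligases and removed by deubiquitinases. Polycomb repressive complex 1 places the H2AK119ub1 mark that accompanies gene silencing, and BAP1, bound to an ASXL protein that activates it, removes this mark as the Polycomb repressive deubiquitinase complex (PR-DUB). USP16, USP21, USP3 and MYSM1 are other enzymes known to act on monoubiquitinated H2A, in part during mitosis, transcription or DNA repair. USP7 is known for stabilising MDM2, DNMT1 and UHRF1, and USP36 is a nucleolar enzyme known for its part in ribosome production. BAP1 is mutated in cancers of the mesothelium, eye, kidney and bile duct.

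The position of a guide shows what part of the gene a cut would disrupt. The guide table used here was shortened, and it is not the full set of guides of any of these genes. Positions were found in it for 19 guides of 8 of the genes, none for USP16, and those of USP17L2 are not reported here. All 19 were expected to cut in coding exons of the canonical transcript (GENCODE v44, GRCh38), between 11.3% and 89.2% of the way along the coding sequence. Guides of the 4 genes on which the results below turn most are shown here. Each is the genomic target read from GRCh38 on the strand of the guide, 5′ to 3′, with the 3 bases of the protospacer adjacent motif in capitals.
BAP1 exon 6: atgggccttggccaactccgGGG
BAP1 exon 14: gaccaatccaaggcagccagGGG
BAP1 exon 15: ctatgaggcgtgcctcaaggAGG
USP36 exon 6: aggacgcgcatgagttcctgCGG
USP36 exon 12: ccgcagatagaacagcacgtAGG
USP7 exon 9: accatacccaaattattccgCGG
USP7 exon 13: catagtggagataatcatggTGG
USP21 exon 3: acctcaggccctcgtcccagAGG
USP21 exon 4: catgttggccttcgaaacctGGG
USP21 exon 5: ttccggcaagaggtgcctggAGG

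The BAP1 targets lay at chr3:52407413-52407435 (plus strand), chr3:52403246-52403268 (minus strand) and chr3:52402805-52402827 (minus strand), with cuts at 18.6%, 81.2% and 89.2% of a coding sequence of 2187 bases in 17 exons. The USP36 targets lay at chr17:78827292-78827314 (minus strand) and chr17:78813772-78813794 (plus strand), at 18.9% and 37.1% of 3369 coding bases. The USP7 targets lay at chr16:8915455-8915477 and chr16:8906466-8906488, both on the minus strand, at 29.4% and 41.8% of 3306 coding bases. The USP21 targets lay at chr1:161160857-161160879, chr1:161162068-161162090 and chr1:161162342-161162364, all on the plus strand, at 13.7%, 38.1% and 44.1% of 1695 coding bases. The ASXL1 target found in the shortened table, cctcacggaggacagcagtgAGG, lay at chr20:32435736-32435758 in exon 13, the last exon, at 65.7% of 4623 coding bases. Of the 4 ASXL2 guides found there, 3 also fell in the last of 13 exons and the other cut in exon 6. The Score pools all guides of a gene, so no result below belongs to 1 of these sequences.

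**Figure D1:**
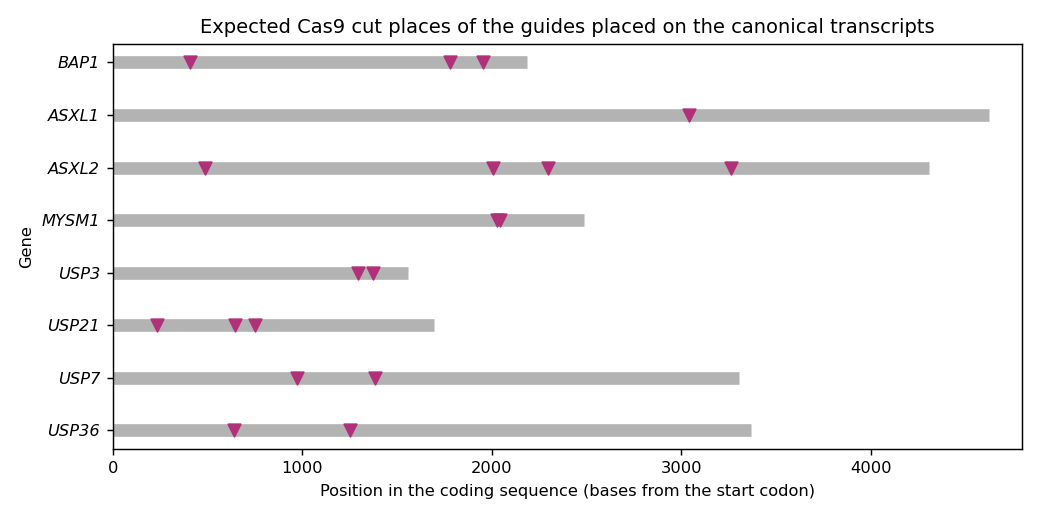
Expected Cas9 cut places (triangles) of the 19 guides placed on 8 genes; grey bars are the coding sequences of the canonical transcripts, on an axis in bases from the start codon. Guides beyond those of the shortened table are not drawn. The 2 MYSM1 and 2 USP3 guides placed here sit between 81.6% and 88.1% of their coding sequences, while those placed on BAP1 and ASXL2 are spread from 18.6% to 89.2% and from 11.3% to 75.7%.

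Among the 10 genes, USP36 and BAP1 had Scores below 0 in all 6 comparisons against initial libraries, as did 175 of the 737 genes (23.7%). USP17L2 alone of the 10 was above 0 in all 6, as were 26 genes (3.53%) of the table. The other 7 genes had Scores on both sides of 0. For MYSM1 (−0.83 and 0.95) and ASXL1 (0.85 and −0.35) the sign also differed between HLF 3D and its repeat with DMSO. USP36 was called depleted in 6 of 6 comparisons, which held for 90 genes of the table (12.2%), and BAP1 in 5 of 6, a number that 168 genes (22.8%) reached or passed. USP7, USP16 and MYSM1 were called depleted in 3 comparisons each, a number that 349 genes (47.4%) reached or passed. USP21, USP3, ASXL1 and ASXL2 were called depleted in 1 each, which 661 genes (89.7%) reached or passed. USP17L2 was called depleted in none, which held for 76 genes of the table.

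**Figure D2:**
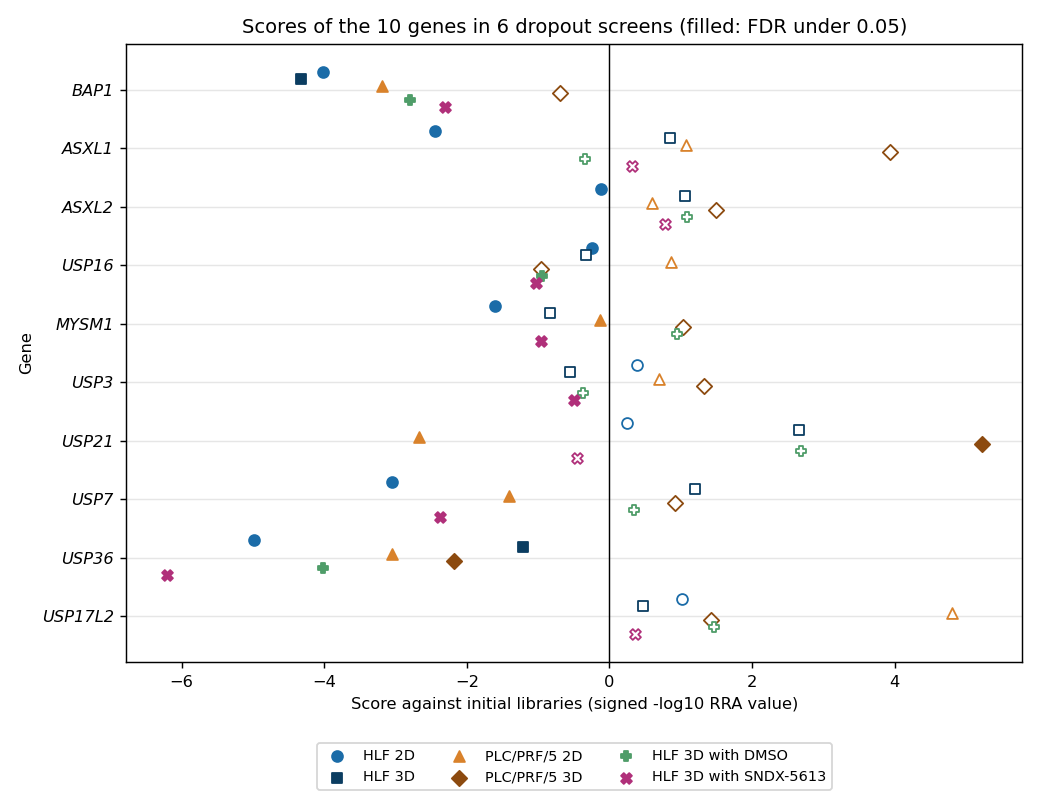
Score of each of the 10 genes (rows) in the 6 comparisons of final with initial libraries (symbols); the x axis is the signed −log10 RRA value, and filled symbols are called at an FDR under 0.05. USP36 and BAP1 lie left of 0 throughout, USP17L2 lies right of 0 throughout, and USP21 spans from −2.67 to 5.22.

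BAP1, the catalytic subunit of PR-DUB, was depleted in every HLF screen and in PLC/PRF/5 monolayers. Its Score was −4.02 in HLF 2D (FDR = 8e-06), −4.32 in HLF 3D (FDR = 7.4e-05), −2.80 in HLF 3D with DMSO (FDR = 4.3e-05) and −2.30 in HLF 3D with SNDX-5613 (FDR = 2.9e-05). In PLC/PRF/5 the Score was −3.19 in 2D (FDR = 1.1e-05) and −0.69 in 3D (FDR = 0.252), so PLC/PRF/5 spheroids were the 1 setting in which the gene was not called. It was the 25th lowest of all genes in HLF spheroids, the 52nd lowest in HLF monolayers and the 53rd lowest in PLC/PRF/5 monolayers, against 338th lowest in PLC/PRF/5 spheroids.

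The gap between the lines in 3D, 3.63 Score units, was 2.42 times the SD of the repeat and the largest of the 10 genes in that contrast. It uses the untreated HLF 3D Score of −4.32, while the DMSO repeat in HLF gave −2.80. Set against the DMSO repeat, the BAP1 gap was no longer the largest. ASXL1 (3.93 in PLC/PRF/5 3D, −0.35 with DMSO) and USP21 (5.22 and 2.69) then had larger ones. A direct comparison between the lines was not analysed here, so this gap was not tested. BAP1 was one of 89 genes (12.1%) called depleted in HLF spheroids but not in those of PLC/PRF/5. Within each line, the direct comparison of 3D with 2D final libraries called no difference for BAP1, with a Score of 0.27 in HLF (FDR = 0.771) and 1.09 in PLC/PRF/5 (FDR = 0.648).

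ASXL1 and ASXL2, the scaffolds that activate BAP1, did not follow BAP1 across the screens. ASXL1 was depleted in HLF 2D, with a Score of −2.44 (FDR = 8e-06). Its Scores were 0.85 in HLF 3D, −0.35 with DMSO, 0.31 with SNDX-5613 and 1.08 in PLC/PRF/5 2D, none of them called. In PLC/PRF/5 3D it stood at 3.93, the 22nd highest of all genes, with an FDR of 0.0688 that missed the threshold. ASXL2 ranged from −0.12 in HLF 2D to 1.49 in PLC/PRF/5 3D. Its HLF 2D value was called depleted (FDR = 0.000337) although it lay above the median Score of all genes in that screen, −0.55.

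In percentile ranks over the 6 comparisons, with 0 for the most depleted gene, BAP1 had a median of 8.82, ASXL1 of 68.4 and ASXL2 of 79.3. The root mean square distance between their ranks was 23.3 percentile points for ASXL1 and ASXL2, 55.0 for BAP1 and ASXL1 and 64.3 for BAP1 and ASXL2. Of the 10 genes, BAP1 lay closest to USP36, at 18.0 points. These distances describe 6 comparisons, of which 3 may share initial libraries.

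The enzymes known for removing ubiquitin from H2A apart from BAP1 showed small Scores, with USP21 as the exception. USP16, which acts on H2A in mitosis, had a Score of −0.24 in HLF 2D (FDR = 3.9e-05), −0.33 in HLF 3D (FDR = 0.431), −0.95 with DMSO (FDR = 0.0217), and −1.03 with SNDX-5613 (FDR = 0.00684). The PLC/PRF/5 values were 0.86 in 2D and −0.96 in 3D, neither called. MYSM1, a metalloprotease known for its part in blood cell development, was depleted in monolayers at −1.61 in HLF (FDR = 8e-06) and −0.13 in PLC/PRF/5 (FDR = 0.0231), and in HLF spheroids with SNDX-5613 at −0.96 (FDR = 0.00785). Its other Scores were −0.83 in HLF 3D, 0.95 with DMSO and 1.03 in PLC/PRF/5 3D. USP3, a nuclear enzyme linked to the DNA damage response, was called in 1 comparison, HLF 3D with SNDX-5613, at −0.50 (FDR = 0.0485), and otherwise lay between −0.55 and 1.33. The sizes of all the Scores of USP16, MYSM1 and USP3 were at most 1.61. Although called depleted, USP16 in HLF 2D and MYSM1 in PLC/PRF/5 2D lay above the median Scores of all genes, −0.55 and −0.57. So did USP3 with SNDX-5613, where the median was −0.52.

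USP21, which removes ubiquitin from H2A and from signalling proteins, had the widest span of the 10 genes. It was depleted in PLC/PRF/5 monolayers, with a Score of −2.67 (FDR = 1.1e-05). The gene was enriched in spheroids of the same line, with a Score of 5.22 (FDR = 0.00498), the 11th highest of all genes. Of all genes, 12 (1.63%) shared this pair of calls. In HLF the gene had a Score of 0.24 in 2D, 2.66 in 3D (FDR = 0.649) and 2.69 in the repeat with DMSO (FDR = 0.425). The 2 HLF 3D values thus lay 0.04 apart, and neither was called. With SNDX-5613 its HLF 3D Score was −0.46 (FDR = 0.0607).

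USP7, the deubiquitinase of MDM2 and maintenance methylation proteins, was depleted in both monolayer screens and in neither untreated spheroid screen. The Score in monolayers was −3.05 in HLF (FDR = 8e-06) and −1.41 in PLC/PRF/5 (FDR = 1.1e-05), against spheroid Scores of 1.20 in HLF, 0.92 in PLC/PRF/5 and 0.35 in HLF with DMSO, each with an FDR of 1. In HLF 3D with SNDX-5613 it was depleted at −2.38 (FDR = 2.9e-05). In that screen 51% of all genes were called depleted. The direct comparison of SNDX-5613 with DMSO did not call USP7 (Score of −3.01, FDR = 0.142).

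USP36, the nucleolar deubiquitinase, was depleted in all 6 comparisons. Its Scores were −4.99 in HLF 2D (FDR = 8e-06), −1.22 in HLF 3D (FDR = 0.0494), −4.01 with DMSO (FDR = 4.3e-05), −6.20 with SNDX-5613 (FDR = 2.9e-05), −3.04 in PLC/PRF/5 2D (FDR = 1.1e-05) and −2.19 in PLC/PRF/5 3D (FDR = 0.0081). With SNDX-5613 it was the 7th lowest of all genes, and in HLF 2D the 23rd lowest. The weakest value, in HLF 3D, lay just inside the threshold, where the smallest called depletion had a size of 1.21. The HLF 3D screen and its DMSO repeat differed by 2.80 Score units for USP36, 1.87 times the SD over all genes and the largest difference of the 10. MYSM1 (1.78 units) and BAP1 (1.52 units) also differed by more than that SD and the other 7 genes by less, as did 69.2% of all genes.

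USP17L2, known as DUB3 and as a stabiliser of the cell cycle phosphatase CDC25A, belongs to a family of near-identical gene copies. Its Scores were 1.01 in HLF 2D, 0.47 in HLF 3D, 1.46 with DMSO, 0.36 with SNDX-5613, 4.80 in PLC/PRF/5 2D and 1.42 in spheroids of that line, each with an FDR of 1. The PLC/PRF/5 2D value was the highest of all 737 genes in that screen, in which no gene was called enriched. Guides against 1 copy can match others, and how many copies were cut was not tested.

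Read against the whole library, the share of the 10 genes called depleted was close to that of all genes in HLF 2D (70% beside 68%). It lay above that share with SNDX-5613 (60% beside 51%) and below it in the other 4 screens. With SNDX-5613 and in HLF 3D the gap was under 1 gene of the 10. In HLF 2D, 7 of the 10 genes were called depleted (all but USP21, USP17L2 and USP3), beside 68% of all genes, and every gene of the table with a Score below 0 was called there. Of the 10, 5 were called depleted in PLC/PRF/5 2D (USP7, USP21, USP36, MYSM1 and BAP1), beside 65.8% of all genes. In both of these screens 0% of all genes were called enriched. Of the 488 genes with a Score below 0 in PLC/PRF/5 2D, 485 were called, so that a depletion call in either 2D screen was close to the sign of the Score.

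In HLF 3D, USP36 and BAP1 were called depleted, 2 of 10 beside 27.1% of all genes, and none of the 10 enriched beside 1.09%. The calls in PLC/PRF/5 3D were USP36 as depleted, beside 23.7% of all genes, and USP21 as enriched, beside 2.31%. With DMSO, USP36, USP16 and BAP1 were depleted beside 41.5%, and none enriched beside 2.58%. With SNDX-5613, 6 of 10 were depleted (USP7, USP36, USP3, USP16, MYSM1 and BAP1) beside 51%, and none enriched beside 3.53%. The median Score of the 10 genes lay below that of all genes in HLF monolayers (−0.93 against −0.55) and with SNDX-5613 (−0.73 against −0.52). It lay above in HLF spheroids (0.07 against −0.39), in PLC/PRF/5 monolayers (0.24 against −0.57) and spheroids (1.18 against −0.51), and with DMSO, where it was near 0 against −0.45.

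The direct comparison of 3D with 2D final libraries asks whether a knockout fared better in one culture than in the other. USP7 and ASXL1 were higher in 3D in both lines, and USP21 was higher in 3D in PLC/PRF/5. For USP7 the Score was 5.14 in HLF (FDR = 0.000203), the 11th highest of all genes, and 3.61 in PLC/PRF/5 (FDR = 0.00984), the 33rd highest. For ASXL1 it was 1.97 in HLF (FDR = 0.0496), the lowest Score called higher in that comparison, and 2.84 in PLC/PRF/5 (FDR = 0.0393). For USP21 it was 6.28 in PLC/PRF/5 (FDR = 0.000203), the 10th highest, while the HLF value of 1.85 had an FDR of 0.0636 and missed the threshold. None of the 10 genes was called lower in 3D in either line.

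These were 2 of 10 genes in HLF, beside 12.2% of all genes called higher and 0% lower, and 3 of 10 in PLC/PRF/5, beside 7.06% called higher and 0.136% lower. Both lines called USP7 and ASXL1, 2 of 10, beside 4.48% of all genes. The medians of the 10 genes were 0.96 in HLF against 0.40 for all genes, and 1.09 in PLC/PRF/5 against −0.29. USP7 was one of 25 genes (3.39%) that were depleted in both 2D screens, in neither untreated 3D screen, and higher in 3D in both lines. The 2D and 3D columns of PLC/PRF/5 also ended in different number tags, while those of HLF shared 1 tag, and whether what the tags stand for moves with the difference between cultures was not tested.

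**Figure D3:**
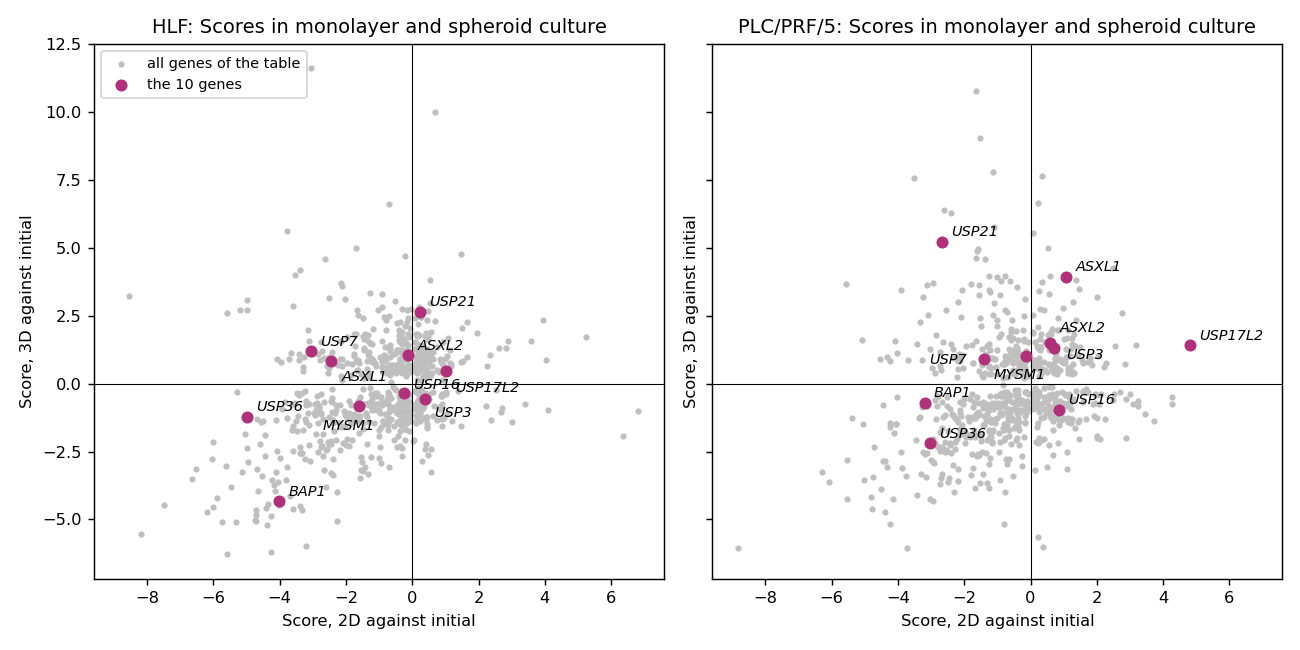
Score in 3D (y axis) against Score in 2D (x axis), each against initial libraries and in signed −log10 RRA units, for HLF (left) and PLC/PRF/5 (right); grey points are all 737 genes and the labelled points the 10 genes. BAP1 and USP36 lie at the lower left in HLF, while USP7 lies left of 0 and above 0 in both lines and USP21 does so in PLC/PRF/5.

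The separately scored screens use the same final libraries as the direct comparisons, and their differences are given beside them. USP7 lay 4.25 Score units higher in HLF 3D than in HLF 2D, 2.83 times the SD of the repeat, and ASXL1 3.29 units higher, 2.20 times that SD. USP21 lay 7.89 units higher in PLC/PRF/5 3D than in 2D, 5.26 times the SD. USP36 lay 3.77 units higher in HLF 3D, 2.52 times the SD, but its direct Score was 1.51 (FDR = 0.142) and was not called. In the DMSO repeat of HLF 3D the USP36 Score was −4.01, beside −4.99 in HLF 2D. USP17L2 lay 3.38 units lower in PLC/PRF/5 3D than in 2D, while its direct Score was 0.64 (FDR = 0.928), of the opposite sign.

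**Figure D4:**
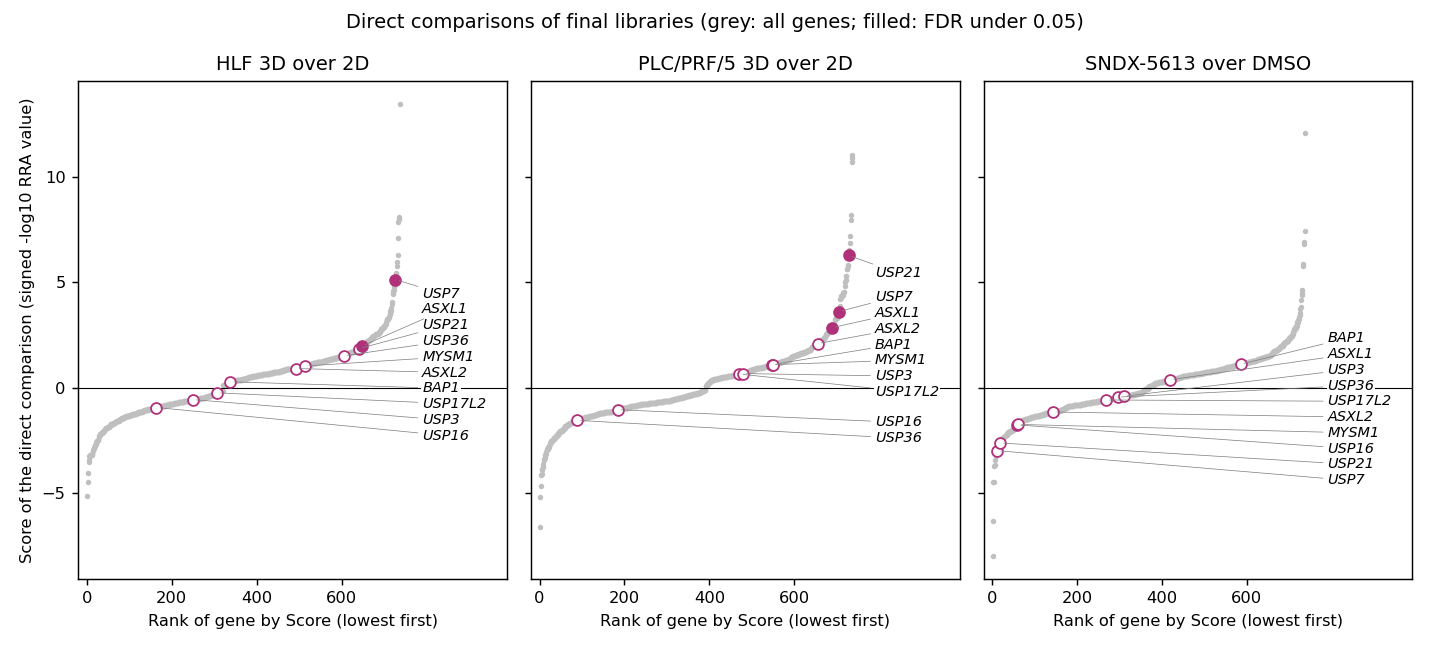
Score of every gene in the 3 direct comparisons of final libraries (y axis, signed −log10 RRA value) by rank (x axis, lowest first); grey points are all genes, circles the 10 genes, filled where the FDR was under 0.05. USP7 and ASXL1 are filled at the upper end in both lines and USP21 in PLC/PRF/5, and no circle is filled for SNDX-5613 over DMSO.

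In the direct comparison of SNDX-5613 with DMSO in HLF 3D, none of the 10 genes was called. The test called 0.543% of all genes lower and 4.07% higher. USP7 had the lowest Score of the 10, −3.01 (FDR = 0.142), the 12th lowest of all genes, and USP21 followed with −2.64 (FDR = 0.183), the 19th lowest. Of the 10 genes, 8 lay below 0, beside 49.8% of all genes, with BAP1 at 1.11 (FDR = 0.358) and ASXL1 at 0.37 (FDR = 0.771) above. The smallest Score called lower in this comparison had a size of 4.48.

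Against the initial libraries, USP7, USP3 and MYSM1 were called depleted with SNDX-5613 and not with DMSO, as were 128 genes of the table (17.4%). No gene of the 10 showed the reverse, which 58 genes did (7.87%). The USP3 Scores in the 2 screens lay only 0.14 units apart, 0.09 times the SD of the repeat. The differences between these screens were −3.15 for USP21, −2.72 for USP7, −2.19 for USP36 and −1.91 for MYSM1, or 2.10, 1.82, 1.46 and 1.28 times the SD of the repeat. Since the direct test called none of them, a difference with the compound was not shown for any of the 10 genes.

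Between the lines, ASXL1 and USP17L2 had the largest gaps in monolayers, with PLC/PRF/5 higher by 3.52 and 3.79 Score units, 2.35 and 2.53 times the SD of the repeat. USP21 lay 2.91 units lower in PLC/PRF/5 2D than in HLF 2D. In spheroids, set against the untreated HLF 3D screen and not its DMSO repeat, PLC/PRF/5 was higher by 3.63 units for BAP1, 3.09 for ASXL1 and 2.57 for USP21. USP36 differed by 1.94 units in 2D and by −0.97 in 3D. These gaps were not tested.

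Other genes of the same pathways give the setting. Their counts are to be read beside the shares of all genes that were called. Depleted were 68% in HLF monolayers, 27.1% in HLF spheroids, 65.8% and 23.7% in these cultures of PLC/PRF/5, 41.5% with DMSO and 51% with SNDX-5613. Enriched were 0% in both monolayer screens, 1.09% and 2.31% in HLF and PLC/PRF/5 spheroids, 2.58% with DMSO and 3.53% with SNDX-5613. Higher in 3D than in 2D were 12.2% in HLF and 7.06% in PLC/PRF/5, and lower 0% and 0.136%. With SNDX-5613 over DMSO, 4.07% were higher and 0.543% lower. Of 7 further PR-DUB partners in the table, 5 were depleted in HLF monolayers and 3 in HLF spheroids, 5 in PLC/PRF/5 monolayers and 3 in PLC/PRF/5 spheroids, 4 with DMSO and 4 with SNDX-5613, and none was enriched. The list's share was thus 71.4% in each monolayer screen, near that of all genes, and 42.9% in the spheroids of each line without treatment. HCFC1, a BAP1-binding transcription cofactor, was depleted in all 6, with Scores from −6.19 to −2.30, and so was YY1, a transcription factor that recruits it, from −3.46 to −1.44. OGT, the O-GlcNAc transferase, was also called in all 6. MBD5, with Scores from −0.56 to 1.57, was called in PLC/PRF/5 2D alone. KDM1B, a histone demethylase, had Scores from 0.32 to 2.65 and was not called against the initial libraries. In the direct comparison of HLF 3D with 2D, 2 of the 7 were called higher, beside 12.2% of all genes. They were KDM1B with a Score of 2.15 (FDR = 0.0325) and ASXL3, a paralog of ASXL1, with a Score of 2.24. The medians of the 7 genes in the 6 screens lay between −1.52 and −0.34, beside −0.57 and −0.39 for all genes in the same 2 screens.

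Of 17 genes of Polycomb complexes that place H2AK119ub1, 10 were depleted in HLF monolayers and 6 in HLF spheroids, 11 in PLC/PRF/5 monolayers and 5 in PLC/PRF/5 spheroids, 5 with DMSO and 11 with SNDX-5613. These are 58.8% and 64.7% of the list in the monolayers of HLF and PLC/PRF/5, at or below the shares of all genes, and 64.7% with SNDX-5613. None was enriched, beside at most 3.53% of all genes in any screen. None was called in a direct comparison, beside at most 12.2% of all genes in either direction. SKP1, which also belongs to SCF ubiquitin ligases, ranged from −5.69 to −2.82, and the repressor E2F6 from −2.90 to −1.75, and both were depleted in all 6. BMI1 was depleted in PLC/PRF/5 3D at −2.005 and with SNDX-5613 at −1.45, with 1.99 in PLC/PRF/5 2D. KDM2B was depleted in HLF 3D at −1.28 and, in the other line, in 2D at −0.46.

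For the SAGA deubiquitinase module, 1, 3, 3, 2, 4 and 3 of its 4 genes in the table were depleted in HLF monolayers, HLF spheroids, PLC/PRF/5 monolayers, PLC/PRF/5 spheroids, DMSO and SNDX-5613, in that order, or 25% of the module in HLF monolayers and 50% to 100% in the other screens. USP22, its enzyme, had a Score of 6.34 in HLF 2D with an FDR of 1, and lay between −3.25 and −1.42 in the other 5, called in each. ATXN7 had 6.82 in HLF 2D, also with an FDR of 1, and ATXN7L3 had 2.38. ENY2 was the 1 gene of the module depleted in HLF 2D, at −3.24. None of the 4 genes was enriched, and none was called in a direct comparison, calls that few of all genes had.

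Of 9 writers of H2B ubiquitination, 8 were depleted in each 2D screen, 1 in each 3D screen without SNDX-5613, and 4 were depleted with SNDX-5613. This is 88.9% of the list in 2D and 11.1% in 3D without SNDX-5613, in a library that as a whole was depleted more often in 2D. CDC73, of the PAF1 complex, was depleted in all 6, from −3.74 to −0.36. CTR9 was depleted in monolayers at −1.22 in HLF and −1.74 in PLC/PRF/5, and at −1.01 with SNDX-5613. WAC, an adaptor of the H2B ligase, was depleted in monolayers at −5.20 in HLF and −4.55 in PLC/PRF/5 and enriched at 4.86 with DMSO, as was LEO1. RNF40, WAC and LEO1 were higher in 3D than in 2D in HLF, 3 of 9 beside 12.2% of all genes. In PLC/PRF/5 this comparison called none of the 9, beside 7.06% of all genes higher. LEO1 was lower with SNDX-5613 than with DMSO, as were 0.543% of all genes. UBE2B was not called in any comparison.

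Among 9 genes of a list built around USP7 clients, 6, 3, 5, 4, 3 and 6 were depleted in the 6 screens in the order above, which in monolayers is 66.7% (HLF) and 55.6% (PLC/PRF/5), at or below the shares of all genes. DNMT1, the maintenance DNA methyltransferase, was depleted in all 6, from −5.84 to −4.24, and UHRF1, its partner, from −5.05 to −2.20. Both kept Scores of at most −2.20 in the untreated spheroid screens, where USP7 was at 1.20 and 0.92. KDM1A, a histone demethylase, was depleted in the monolayers of HLF at −1.69 and of PLC/PRF/5 at −1.15 and enriched in every 3D screen, from 4.99 to 9.38. It was higher in 3D than in 2D in both lines, at 5.44 and 7.95, as USP7 was.

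Of 11 genes that write or read H2A ubiquitin at DNA breaks, 10, 4, 6, 2, 4 and 5 were depleted. The share was 90.9% in HLF monolayers and between 18.2% and 54.5% in the other screens. BRCA1 was depleted in all 6, from −4.38 to −1.79, and BARD1, its partner in a ubiquitin ligase, in all but PLC/PRF/5 3D, where it had −1.28. BABAM1, a BRCA1-A subunit, was enriched in PLC/PRF/5 3D at 5.53 and higher in 3D in both lines, at 3.11 and 4.22. Of 9 other deubiquitinases of the table, 4, 3, 5, 1, 3 and 3 were depleted, and none was called in a direct comparison. Their shares, 44.4%, 33.3%, 55.6%, 11.1%, 33.3% and 33.3%, lay below those of all genes but for HLF spheroids. UCHL5, of the proteasome and INO80, was depleted in monolayers at −2.06 in HLF and −2.65 in PLC/PRF/5, with DMSO at −1.22 and with SNDX-5613 at −1.06. USP11 was depleted in HLF 3D at −1.30. BRCC3, which stands in both of these lists, was enriched with SNDX-5613 at 4.42, with 4.19 in the DMSO screen that was not called.

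For each of the 10 genes called in at least 2 screens, and for no others, the genes with the most similar percentile ranks over the 6 comparisons were listed. BAP1 lay nearest CHAF1A, a chromatin assembly factor, at a root mean square distance of 3.41 percentile points, followed by SUPT6H (3.64) and KDM2A (7.30). USP36 lay nearest SSRP1, a subunit of the histone chaperone FACT (3.87) and then TADA3 (5.61). USP7 lay nearest UBE2T, a ubiquitin-conjugating enzyme of DNA crosslink repair (4.05), then APEX1 (8.83) and VPS72 (10.7). USP16 lay nearest APOBEC3D (5.97), MYSM1 nearest ANP32A (11.8) and USP21 nearest RING1 (16.5), a catalytic subunit of complexes that place H2AK119ub1. USP21 thus had no neighbour as near as those of the other 5 genes.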

How the data were processed

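The authors ran MAGeCK on guide counts and set genes against non-targeting guides. The MAGeCK version and the build for guide design are not given in the sources used here. For each of 737 genes and 9 comparisons the deposited table held 1 score (the signed −log10 RRA value) and 1 FDR, a p-value adjusted over genes by the authors. These are the authors' own comparisons and the only values in the table, so they were used as deposited, with no SD, n or depth, and no new test was made. A gene was called at an FDR under 0.05. The columns named 2D against 3D were read as 3D over 2D, since 82.9% (HLF) and 79.4% (PLC/PRF/5) of genes had the sign of the difference of the 2 screens that share those final libraries; the figure was 78.6% for SNDX-5613 over DMSO. Samples were grouped by their labels (30 libraries, 10 groups).

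Percentile ranks ran from lowest to highest Score over all genes. Distances between genes were root mean squares of rank differences over 6 comparisons. Guide targets were read from GRCh38 at the coordinates in the guide identifiers of a shortened guide table of the study, used without sequences. The reading was first checked on a separate guide list of the study. All 1135 guides listed there with a sequence matched the genome at their coordinates. Coding positions came from GENCODE v44. Python 3.11.15, pandas 2.3.3, numpy 2.4.6 and pysam 0.24.0 were used, and the scripts were tested on simulated data.

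Named were all 10 genes, up to 4 genes for each of 7 pathway lists (the lowest and highest median percentile ranks) and up to 3 nearest genes; some items the rule names are not reported here. OGT, ASXL3, RNF40 and LEO1 were named after their values were seen. The 10 genes and all lists were chosen with earlier results of these data known. The alternatives were an FDR under 0.01 or 0.10, a minimum Score size of 1, the deubiquitinases alone, the genes without USP17L2, and Scores set against the median or middle rank of all genes.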

Additional observations from a re-analysis of the deposited data

Results flagged for a closer look

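The direct comparisons, which test the difference between cultures, called 5 differences among the 10 genes, all of them higher in 3D than in 2D. Of all genes, 12.2% were called higher in HLF and 7.06% in PLC/PRF/5, beside 0% and 0.136% called lower. Nearly every call in these comparisons was thus a higher one, for any gene. USP7 had a Score of 5.138 in HLF (FDR = 0.000203) and 3.609 in PLC/PRF/5 (FDR = 0.00984). ASXL1 had 1.974 in HLF (FDR = 0.0496) and 2.843 in PLC/PRF/5 (FDR = 0.0393). USP21 had 6.285 in PLC/PRF/5 (FDR = 0.000203).

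These comparisons rest on 2 calls near the threshold, both of ASXL1, and on 3 well inside it. Values per library were not analysed here, so whether 1 library carries a difference was not tested.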

How the results depend on the processing

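Of 47 recomputed counts and spreads, 44 stayed within 1.5 times the value reported and 3 fell below. Many of these counts could not change. USP17L2 was called in no comparison, so the counts without it were fixed. No ASXL gene was called in the untreated 3D screens, in PLC/PRF/5 2D, with DMSO or with SNDX-5613. The counts of deubiquitinases only were therefore fixed there. A minimum Score size of 1 could change nothing in the untreated 3D screens or in 3D over 2D, where every called Score was larger in size. For SNDX-5613 over DMSO no gene of the 10 was called, so only the looser FDR could have changed that count. At an FDR under 0.01 the calls among the 10 genes went from 2 to 1 in HLF 3D against initial, where BAP1 remained and USP36 was lost, and from 2 to 1 in HLF 3D over 2D, where USP7 remained and ASXL1 was lost. With deubiquitinases only, the count for HLF 3D over 2D also went from 2 to 1. In PLC/PRF/5 3D over 2D each of these 2 settings took the count from 3 to 2, with ASXL1 lost. At an FDR under 0.01, USP7 alone of the 10 genes thus remained higher in 3D in both lines. The calls of USP16 with DMSO, MYSM1 in PLC/PRF/5 2D and USP3 with SNDX-5613 were also lost at that threshold. The SD of the repeat, 1.499, became 1.47 as a scaled median absolute deviation and 1.37 over the 10 genes alone.

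Of 60 recomputed values of called Scores, 52 kept their sign and 8 turned. Those that turned came from weak depletion calls that lay above the middle of all genes. Setting a Score against the median or against the middle rank gives the same sign, so these are not separate checks. Set against the median Score of all genes and then as percentile points from the middle rank, USP16 in HLF 2D came to 0.31 and 10.0, ASXL2 in HLF 2D to 0.43 and 15.6, MYSM1 in PLC/PRF/5 2D to 0.45 and 14.8, and USP3 with SNDX-5613 to 0.0158 and 0.68.

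No paired analysis was possible because the deposited table used here holds 1 value for each gene and comparison and none for each library, and for the same reason no replicate was left out. Depth is unknown. Only 1 group of HLF 3D initial libraries was labelled, and the DMSO repeat measures the spread in 1 line and 1 culture.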

Other observations

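Among the other genes of the pathways described, USP22 and ATXN7 of the SAGA deubiquitinase module had Scores of 6.34 and 6.82 in HLF 2D, each with an FDR of 1. In that screen no gene was called enriched, up to a Score of 6.82, whereas the smallest enrichment called in HLF 3D had a Score of 4.58. In PLC/PRF/5 2D no gene was called enriched up to a Score of 4.80, that of USP17L2, beside a smallest called enrichment of 4.26 in PLC/PRF/5 3D. In the same screens depletion was called down to sizes of 0.03 (HLF 2D) and 0.09 (PLC/PRF/5 2D). A Score of a given size therefore did not stand for the same FDR in the 2 directions or in the 2 cultures.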
